A study of Mus musculus with 34 samples.

Results

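The 35 genes described here encode proteins of the Fanconi anaemia pathway and of homologous recombination, and were taken by gene symbol. No measured value served as a filter, but the list was chosen with earlier results of these data known. All 35 had a row in every deposited table, out of 49686 genes listed for zygotes and late 2-cell embryos and 51734 listed for blastocysts. They fall into 7 roles: 9 genes of the Fanconi core complex with its ubiquitin-conjugating enzyme, 4 genes of the ID complex and the enzyme that deubiquitinates it, 5 BRCA proteins and partners, 5 XRCC genes and partners (Rad51b, Rad51c, Rad51d, Xrcc2 and Xrcc3), 3 RAD52 and RAD54 proteins, 5 genes of DNA end resection and 4 genes of junction processing. Every library was made from 1 mouse embryo that had been injected at the zygote stage with mRNA for wild-type (WT) CHK1 or for the CHK1 R442Q mutant, so WT embryos also carry injected CHK1, and uninjected embryos were not analysed here. There were 5 WT and 6 R442Q zygotes and 4 WT and 5 R442Q late 2-cell embryos, all without inhibitor, and 7 WT and 7 R442Q blastocysts that had been cultured with 30 nM Chk1 inhibitor. The labels give no strain, age or parentage of the embryos, and nothing says which embryos shared a litter or an injection session, so p-values measure the spread between these embryos.

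The Fanconi pathway repairs crosslinks between the DNA strands. A core complex, whose catalytic subunit is the ubiquitin ligase FANCL, works with the conjugating enzyme UBE2T to attach ubiquitin to FANCD2 and FANCI, the ID complex, and USP1 with its partner WDR48 removes it again. Homologous recombination then copies the intact sister chromatid: MRE11, RAD50, NBN, CtIP (encoded by Rbbp8) and EXO1 resect the broken end, BRCA1 and BARD1 promote that step and, through PALB2, bring in BRCA2, and BLM, SLX4 and MUS81 with EME1 resolve the joined DNA. CHK1 is the checkpoint kinase that delays mitosis while such repair is under way, and the early embryo lives first on transcripts laid down in the oocyte before its own genome is activated. A level given below is a share of an embryo's sequenced RNA, so fewer cells of a type and less RNA per cell cannot be told apart.

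Chek1 itself, measured as injected and endogenous transcripts together, was at 5980 ± 1766 CPM (counts scaled to a common library size; SD, n = 5) in WT zygotes and 6871 ± 640 (n = 6) in R442Q zygotes. It was at 479 ± 136 and 481 ± 188 CPM in late 2-cell embryos, and at 21.0 ± 10.8 and 18.3 ± 3.27 fragments per kilobase of transcript, scaled to the library's depth (FPKM; n = 7 each), in blastocysts. The gene-level count cannot separate WT from mutant transcripts, so it does not check the genotype labels. Zygote libraries held between 7183632 and 11296522 counts and late 2-cell libraries between 5727956 and 8916343, and the depth of the blastocyst libraries is unknown because only FPKM was used for them. All 8 oocyte genes, Zp3 and Gdf9 among them, had a mean of at least 1 FPKM in zygotes, all 7 late 2-cell genes with a row did so in late 2-cell embryos, and all 8 blastocyst genes in blastocysts. Blastocysts were apart from the other stages in the sum of each of these lists, but zygotes and late 2-cell embryos were not: the late 2-cell genes summed to 117 to 216 FPKM in WT zygotes and from 144 FPKM in WT late 2-cell embryos, and the oocyte genes reached 7506 FPKM in R442Q late 2-cell embryos against 6674 to 8723 in R442Q zygotes. R442Q blastocyst replicate 7 had the fewest genes at 1 FPKM or more, 8189, against 9852 to 12191 in the WT blastocysts.

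Mouse promoters were available from RefSeq (GRCm38.p6) for 26 of the 35 members, which had 29 entries of 300 bases each, from 250 bases before to 50 bases after a transcription start. Stretches of 4 of these entries, the 120 or 180 bases just before the start, are shown for the E2F-type or CCAAT letters they hold. An E2F-type site is spelled TTCCCGC, or in its variants TTCGCGC, also TTGCCGC, and further TTGGCGC, and a CCAAT box CCAAT, both known from promoters of cell cycle genes. Each line is read 5′ to 3′ on the gene's strand, and capitals mark these letters on either strand. In the Ube2t window the E2F-type letters GCGCCAA and a CCAAT box overlap. The E2F-type letters of the Brip1 and Brca1 entries lie across or after the start, outside the lines shown, where these genes have CCAAT boxes only. The entries of Eme1 and Fancl, described below, hold neither of the 2 motifs.
Ube2t (chr1:134962385-134962564, plus strand): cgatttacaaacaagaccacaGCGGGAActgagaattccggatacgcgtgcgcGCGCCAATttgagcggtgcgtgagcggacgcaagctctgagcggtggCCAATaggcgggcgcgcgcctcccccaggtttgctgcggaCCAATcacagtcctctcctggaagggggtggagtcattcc
Brip1 (chr11:86201194-86201313, minus strand): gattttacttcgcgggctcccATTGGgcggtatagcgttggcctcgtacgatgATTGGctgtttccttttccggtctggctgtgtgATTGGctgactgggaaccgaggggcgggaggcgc
Brca1 (chr11:101551956-101552135, minus strand): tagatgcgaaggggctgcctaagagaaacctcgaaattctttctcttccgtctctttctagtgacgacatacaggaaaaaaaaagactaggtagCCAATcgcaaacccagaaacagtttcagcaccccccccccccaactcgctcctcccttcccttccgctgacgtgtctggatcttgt
Brca2 (chr5:150522441-150522620, plus strand): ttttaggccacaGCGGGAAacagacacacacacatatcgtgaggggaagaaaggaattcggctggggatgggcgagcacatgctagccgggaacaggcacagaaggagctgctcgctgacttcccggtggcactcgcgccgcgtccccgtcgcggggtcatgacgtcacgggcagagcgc

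An E2F-type site was present in 51.7% of the members' 29 promoter entries and in 9.57% of all 32851 entries of the same length. The members' promoters are also richer in CpG, with a median of 22 CpG dinucleotides against 7 over all entries, and E2F-type letters are themselves rich in C and G. Among the 7588 entries with at least 22 CpG dinucleotides the share with an E2F-type site was 23.2%. A CCAAT box was present in 62.1% of the members' entries, in 37.4% of all entries and in 31.9% of the CpG-rich ones. A CHR-type site (TTTGAA or TTCGAA) was present in 10.3% of the members' entries, in 19.2% of all and in 7.97% of the CpG-rich ones. These are counts of letters, not of bound sites, and were not tested.

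Levels were compared between genes per transcript length, in FPKM. In WT zygotes Ube2t was the most abundant member at 263 ± 23.1 FPKM (SD, n = 5), with 251, 303, 264, 245 and 253 in the 5 embryos. Exo1, the exonuclease of long-range resection, came next at 113 ± 25.7 FPKM (101, 122, 154, 92.7 and 95.6), beside Brca2 at 111 ± 11.7 (112, 115, 90.7, 122 and 114). Ube2t stood above every other member in each WT zygote, whereas the ranges of Exo1 and Brca2 overlapped. The lowest members in WT zygotes were Fancf, an adaptor subunit of the core complex, at 0.162 ± 0.165 FPKM, with 2 of 5 embryos listed at 0, and Bard1 (3.16 ± 0.990) and Eme1 (3.66 ± 1.61), whose ranges overlapped. Fancf rested on 0 to 4 estimated counts per zygote, so its level was at the limit of detection.

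In WT late 2-cell embryos the order at the top was Brca2 (309 ± 25.1 FPKM, n = 4; 296, 343, 309 and 286), Usp1 (130 ± 40.2; 112, 165, 81.6 and 161) and Ube2t (84.9 ± 12.3; 94.4, 87.2, 91.2 and 67.0). Brca2 was above all values of Usp1, while Usp1 and Ube2t overlapped. The lowest were Fancf (0.902 ± 0.852), Bard1 (1.43 ± 0.603) and Rad51b (1.58 ± 0.299), which overlapped with each other. In WT blastocysts Brca2 ranged from 20.5 to 88.7 FPKM (median 52.8, n = 7), Exo1 from 30.1 to 80.0 (median 41.2) and Rad54b, a DNA translocase, from 22.4 to 40.2 (median 32.3), and these ranges overlapped. Fancf had a median of 0 FPKM there, Fancb, a scaffold of the core complex, of 1.46, and Rad51c, a partner of Xrcc3, of 3.29 with 0 in 2 of 7 embryos.

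**Figure D1:**
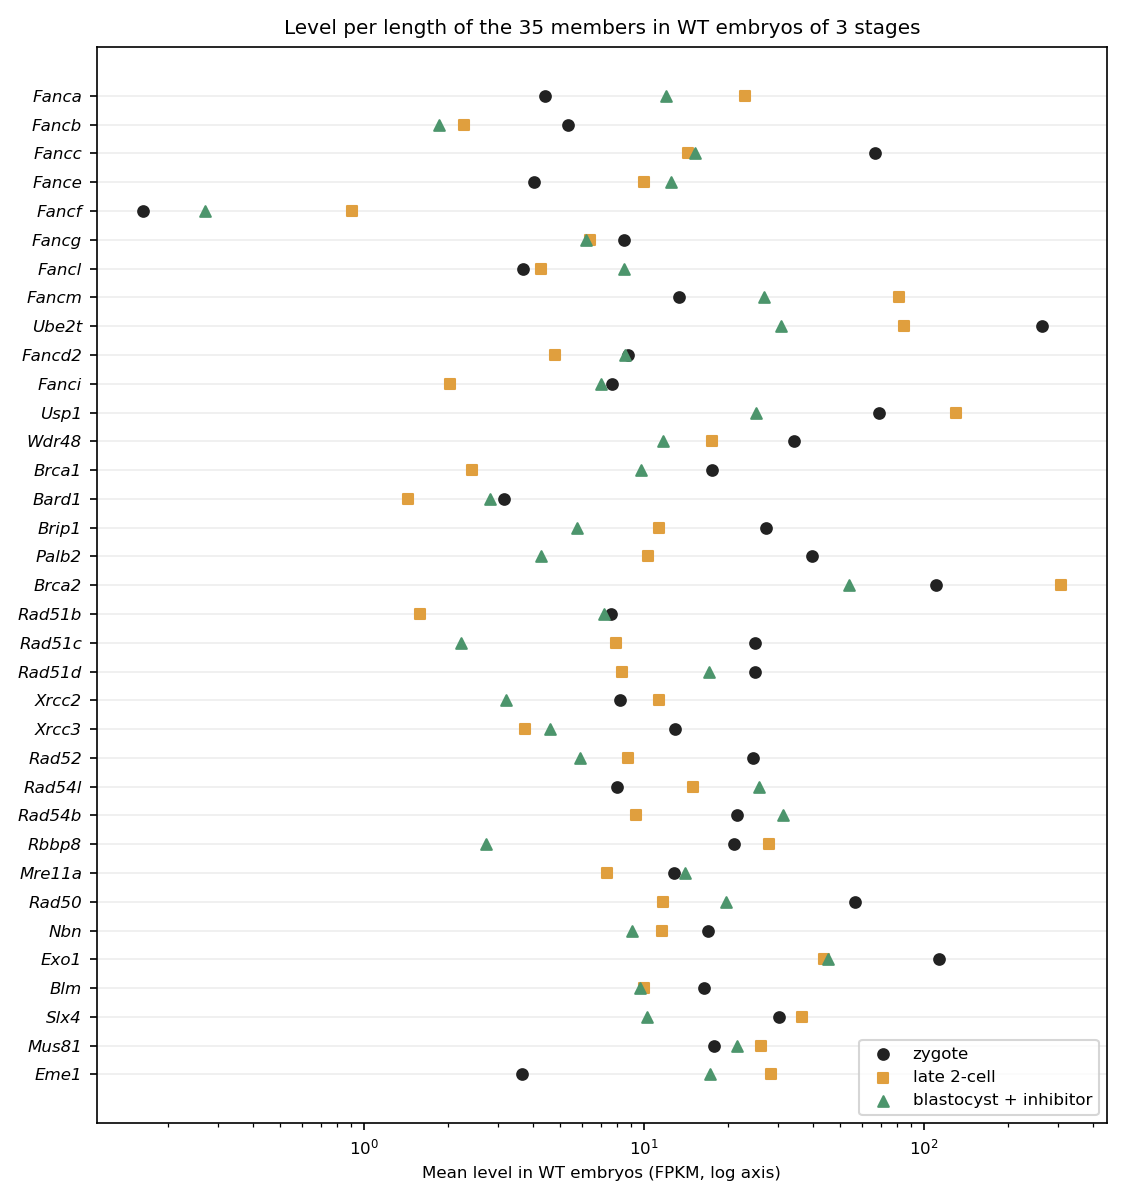
Mean FPKM of each member in WT zygotes (circles), WT late 2-cell embryos (squares) and WT blastocysts with inhibitor (triangles), on a log axis. Ube2t is the highest in zygotes (263 FPKM), Brca2 in late 2-cell embryos (309 FPKM) and blastocysts (54.1 FPKM), and Fancf is the lowest at each stage. The tables of the stages were normalised separately.

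Across the 35 genes the WT levels had a Spearman correlation of 0.591 between zygotes and late 2-cell embryos, 0.660 between late 2-cell embryos and blastocysts, and 0.431 between zygotes and blastocysts. Genes are not independent replicates, and each pair of stages shares the lengths and base composition of the same transcripts. Summed over the 35 members, the mean level was 1109 FPKM in WT and 810 FPKM in R442Q zygotes. The R442Q minus WT difference of the sums was -299 FPKM, and that of Ube2t alone was -158 FPKM. As a share of all FPKM in an embryo, the members held 1462 to 1805 ppm in WT zygotes and 1084 to 1251 in R442Q zygotes. In late 2-cell embryos they held 1266 to 1444 ppm in WT and 742 to 1195 in R442Q. These shares did not overlap at either stage, but their ranges did once the member with the largest part of the difference was left out, in zygotes only just. Without Ube2t the zygotes held 1088 to 1368 ppm in WT and 962 to 1091 in R442Q. Without Usp1, whose late 2-cell difference depended on the unit as given below, late 2-cell embryos held 1135 to 1220 ppm in WT and 709 to 1151 in R442Q, so that both pairs of ranges overlapped. The summed FPKM of late 2-cell embryos overlapped with Usp1 included, at 902 to 1066 in WT and 685 to 973 in R442Q. The FPKM total of all genes, by which the sum is divided, did not overlap at that stage. It was 712234 to 742246 in WT and 814376 to 976830 in R442Q late 2-cell embryos, so the share also depends on this total. In blastocysts the shares, 321 to 641 in WT and 335 to 491 in R442Q, overlapped.

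In zygotes, R442Q embryos had lower levels than WT embryos of 7 of the 34 members tested, and of none of them higher levels. The 7 were Ube2t, Fancl, Brca1, Bard1, Brip1, Rad54b and Rad50, with falls between 1.36-fold and 2.33-fold. Across all 12420 genes tested with edgeR, 13.2% passed the threshold of an adjusted p of 0.05, 6.92% lower and 6.3% higher, and the members' 20.6% stands beside these shares. The median log2 difference was -0.18 over the members and 0.01 over all genes. Fancf was too low to be tested.

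Of the core complex and its E2, Ube2t and Fancl fell in R442Q zygotes. Ube2t, the E2 that charges the pathway with ubiquitin, lies at chr1:134962565-134974162 and was at 227, 257, 238, 226 and 234 CPM in the WT zygotes. In the 6 R442Q zygotes it ranged from 86.1 to 123 CPM with a median of 103. No R442Q zygote reached the lowest WT zygote, and the mean was 2.26-fold lower (log2 difference -1.18 ± 0.11 SE, edgeR adjusted p = 6.27e-05). This call held in all 19 alternative analyses, with log2 differences from -1.33 to -1.12.

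Fancl, the E3 ligase that UBE2T partners with, was at 9.85, 8.27, 9.47, 7.02 and 9.41 CPM in WT and from 2.76 to 6.43 CPM (median 4.89) in R442Q zygotes. The groups did not overlap, and the difference was 1.77-fold (log2 -0.82 ± 0.26, edgeR adjusted p = 0.0438). These levels are low, and the call was lost on leaving out any of 9 of the 11 embryos. Of Fancl's exonic bases, 13.7% overlap Vrk2 on the opposite strand, and whether counting used strand is not given in the sources used here. The same limit holds for Fancc, Fanci, Rad54l, Fancf, Wdr48 and Fanca, with an opposite-strand gene over 10.5% (Fanca, by Zfp276) to 18.6% (Fancc) of their exonic bases. The other 6 core members tested had log2 differences from -0.32 (Fancc) to 0.42 (Fancg), and the 4 genes of the ID complex and its deubiquitinase from -0.48 (Fancd2, adjusted p = 0.0825) to 0.23 (Usp1). None of these 10 passed the threshold.

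Of the BRCA proteins and partners, 3 of 5 fell in R442Q zygotes. Brca1 was at 58.3, 92.2, 95.8, 51.0 and 31.7 CPM in WT zygotes and from 28.7 to 44.0 CPM (median 36.6) in R442Q zygotes. Its WT values were widely spread, with replicate 5 inside the R442Q range, and the difference was 1.79-fold (log2 -0.84 ± 0.23, edgeR adjusted p = 0.0225). Without WT replicate 2 or 3 the adjusted p was 0.0723 and 0.0689. Bard1, the obligate RING partner of BRCA1, was at 9.73, 23.2, 16.5, 17.1 and 17.3 CPM in WT and from 5.00 to 11.5 CPM (median 8.66) in R442Q zygotes. WT replicate 1 lay inside the R442Q range, and the difference was 2.01-fold (log2 -1.01 ± 0.25, edgeR adjusted p = 0.0144, or 0.0514 without WT replicate 2).

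Brip1, the helicase FANCJ that binds BRCA1, was at 140, 158, 159, 159 and 118 CPM in WT zygotes and from 70.6 to 126 CPM (median 89.4) in R442Q zygotes. A single R442Q zygote, replicate 6, exceeded the lowest WT value, and the difference was 1.54-fold (log2 -0.62 ± 0.15, edgeR adjusted p = 0.00969). Palb2, the bridge between BRCA1 and BRCA2, was at 102, 83.6, 121, 123 and 107 CPM in WT zygotes. It was between 128 and 139 CPM in R442Q zygotes, all above the WT values, with a log2 difference of 0.31 ± 0.11 that did not pass the threshold (edgeR adjusted p = 0.0779). Over all genes, groups that did not overlap occurred in 8.71% (4.67% lower and 4.04% higher in R442Q), and among the members in 4 of 34 (Ube2t, Fancl and Rad54b lower, Palb2 higher). These shares are from CPM. In FPKM Ube2t, Fancl and Rad54b were again lower without overlap, and the groups of Palb2 overlapped. The share over all genes was not counted in FPKM. Brca2 differed by 0.09 ± 0.13 on the log2 scale.

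Rad54b was at 27.0, 34.1, 26.4, 18.6 and 20.7 CPM in WT zygotes and from 4.15 to 16.3 CPM (median 10.8) in R442Q zygotes. The groups did not overlap, and the difference of 2.33-fold was the largest among the members (log2 -1.22 ± 0.28, edgeR adjusted p = 0.00831). Rad54b shares 34.5% of its 50-base stretches with Fsbp on the same strand, and Fsbp was at no more than 0.855 CPM in any zygote. Of the resection genes, Rad50, the ATPase of the MRE11 complex, was at 158, 163, 156, 130 and 126 CPM in WT and from 95.7 to 127 CPM (median 105) in R442Q zygotes. All but replicate 6 of the R442Q zygotes lay below the WT values (1.36-fold, log2 -0.45 ± 0.11, edgeR adjusted p = 0.0145). Its partners Nbn and Mre11a had log2 differences of -0.48 ± 0.19 (adjusted p = 0.109) and -0.07 ± 0.18.

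**Figure D2:**
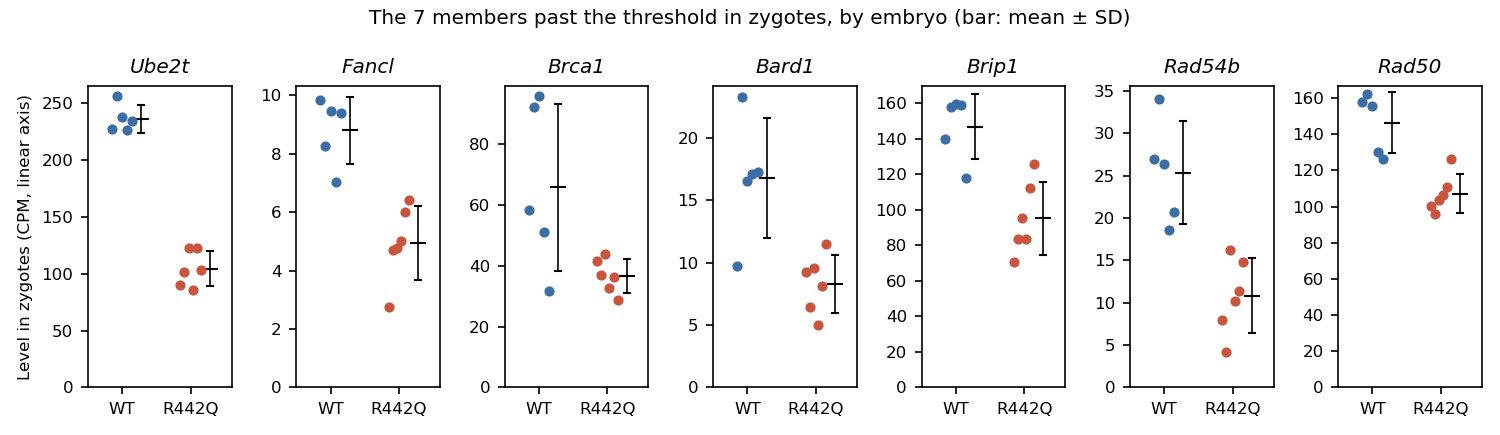
CPM of the 7 members that fell, in each WT (blue) and R442Q (red) zygote, with the mean and SD as a bar and a linear axis from 0. The groups are apart for Ube2t, Fancl and Rad54b and overlap for Brca1, Bard1, Brip1 and Rad50.

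No XRCC gene or partner and no gene of junction processing passed the threshold in zygotes. Their log2 differences lay between -0.27 (Xrcc2) and 0.13 (Rad51c), and between -0.17 (Eme1) and 0.12 (Blm). The summed level of the 8 oocyte genes also differed between the zygote groups, at 8540 to 11011 FPKM in WT and 6674 to 8723 in R442Q, ranges that overlapped. The summed level of 10 cumulus and granulosa genes, 19.9 to 24.0 FPKM in WT and 14.3 to 18.6 in R442Q zygotes, did not overlap. Of these 10, 2 had a mean of at least 1 FPKM in each group, and Amh was listed at 0 in every zygote. The part of these markers in the members' differences was not tested. A joint fit with the late 2-cell embryos, whose spread between embryos enters the estimate, called 270 genes in zygotes, 197 higher and 73 lower, and 1 member, Ube2t. On deposited FPKM (limma), where the median of all genes moved by -0.13, 9 members passed, all lower, and the split of all called genes was 411 higher and 1231 lower against 783 and 860 on counts.

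In late 2-cell embryos 1 of the 35 members passed the threshold, Eme1, which was 4.21-fold lower in R442Q embryos. Over all 13883 genes tested 4.18% passed, 2.95% lower and 1.22% higher, so the members' 2.86% is close to the share over all genes. Eme1 encodes the regulatory partner of the MUS81 nuclease and lies at chr11:94644996-94653964. It was at 56.6, 73.0, 19.9 and 87.0 CPM in WT and at 10.2, 13.5, 24.4, 11.2 and 10.9 CPM in R442Q embryos. WT replicate 3 and R442Q replicate 3 overlapped, and otherwise the groups were apart (log2 -2.07 ± 0.46, edgeR adjusted p = 0.0221). The adjusted p was 0.0799 without WT replicate 2, 0.0851 without WT replicate 4 and 0.0655 when a trend on transcript length and GC was taken out of each library. Of Eme1's exonic bases, 10.7% overlap Lrrc59 or Mrpl27 on the opposite strand.

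In counts the other 3 genes of junction processing lay below 0 too in late 2-cell embryos, without passing the threshold. The median log2 difference of the 4 junction genes was -1.36 against 0.07 over all genes. Slx4, the scaffold that gathers the nucleases, was at 64.1, 45.4, 53.1 and 52.5 CPM in WT and 16.6, 14, 40.9, 9.34 and 18.0 CPM in R442Q embryos (log2 -1.44 ± 0.43, edgeR adjusted p = 0.0712). Mus81, the nuclease subunit, was at 32.8, 33.7, 23.7 and 35.6 CPM in WT and 8.59, 10.1, 9.80, 22.0 and 14.6 CPM in R442Q embryos (log2 -1.27 ± 0.42, edgeR adjusted p = 0.0984). For both genes every R442Q embryo lay below every WT embryo. Blm, the helicase that dissolves junctions, differed by -0.41 ± 0.36 in counts, but its log2 ratio of mean FPKM was 0.22.

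Groups that did not overlap occurred in 12.0% of all genes in late 2-cell embryos (7.58% lower and 4.39% higher) and in 4 of the 35 members: Slx4, Mus81 and Xrcc2 lower and Ube2t higher in R442Q. These are values in CPM. In FPKM the groups of Slx4, Xrcc2 and Ube2t overlapped, and Mus81, Rbbp8 and Usp1 were lower without overlap. The share over all genes was not counted in FPKM, so these FPKM results have no background beside them. Ube2t was at 83.0, 84.1, 83.2 and 66.1 CPM in WT and 135, 118, 99.2, 201 and 92.9 CPM in R442Q late 2-cell embryos. Every R442Q embryo lay above the WT embryos, the opposite of the zygotes, and the log2 difference was 0.71 ± 0.30 (edgeR adjusted p = 0.198). In counts 26 of the 35 members lay below 0, with a median of -0.33. Over all genes 6562 of 13883 lay below 0, with a median of 0.07. By mean FPKM Fanca, Fance, Palb2, Blm and Exo1 lay above 0 instead, and Rad51c below 0. The 4 genes of the ID complex and its deubiquitinase ranged from -1.25 (Wdr48) to -0.50 (Usp1) in counts. The 5 resection genes ranged from -0.79 (Nbn) to -0.13 (Rad50) in counts, and the 5 XRCC genes and partners from -0.79 (Xrcc2) to 0.75 (Rad51b).

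The count of members called at this stage moved with the analysis. DESeq2 called 5 (Rad54l, Slx4, Mus81, Eme1 and Wdr48), all lower, and the joint fit with zygotes called 8 (those 5 with Fancc and Rbbp8 lower and Ube2t higher), where all genes called were 1843 and 2507 in place of 580. The split of all called genes, 170 higher and 410 lower in edgeR, was 829 and 1014 in DESeq2, 264 and 388 in limma on FPKM, and 140 and 191 with the length and GC trend taken out. Without R442Q replicate 3, the R442Q embryo with the highest Slx4 and Eme1, edgeR called 3 members (Rad54l, Slx4 and Eme1). Marker sums differed between these groups as well. The oocyte genes summed to 1501 to 3597 FPKM in WT and 1968 to 7506 in R442Q embryos, and the late 2-cell genes to 144 to 1378 and 721 to 2470. The cumulus and granulosa genes summed to 6.74 to 20.2 and 18.7 to 61.5 FPKM. Of the 10, Kitl and Tnfaip6 alone had a mean of at least 1 FPKM, and Inha, Fshr and Lhcgr were listed at 0 in every late 2-cell embryo. The part of these markers in the members' differences was not tested.

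Usp1 was the member whose late 2-cell difference depended most on the unit. In counts its level was 1.42-fold lower in R442Q than in WT late 2-cell embryos and did not pass (edgeR adjusted p = 0.389), whereas on deposited FPKM the log2 difference was -1.86 ± 0.34 and passed (limma adjusted p = 0.0126). Counts divided by FPKM and library total give the transcript length that each library's FPKM implies. For Usp1 that length was 951 to 2024 bases in WT and 2740 to 3491 bases in R442Q late 2-cell embryos, without overlap, and 1227 to 1782 bases in zygotes of both genotypes. Over 10811 genes the implied length was longer in every R442Q than in every WT late 2-cell embryo for 0.61%, and among the 33 members with a value this was Usp1 alone. It was shorter for 29.8% of these genes and for 5 members, Fanca, Fancm, Bard1, Rbbp8 and Exo1. For Fanca the log2 ratio of means was -0.33 in CPM and 0.36 in FPKM. Usp1 shares 21.4% of its 50-base stretches with Gm5841.

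**Figure D3:**
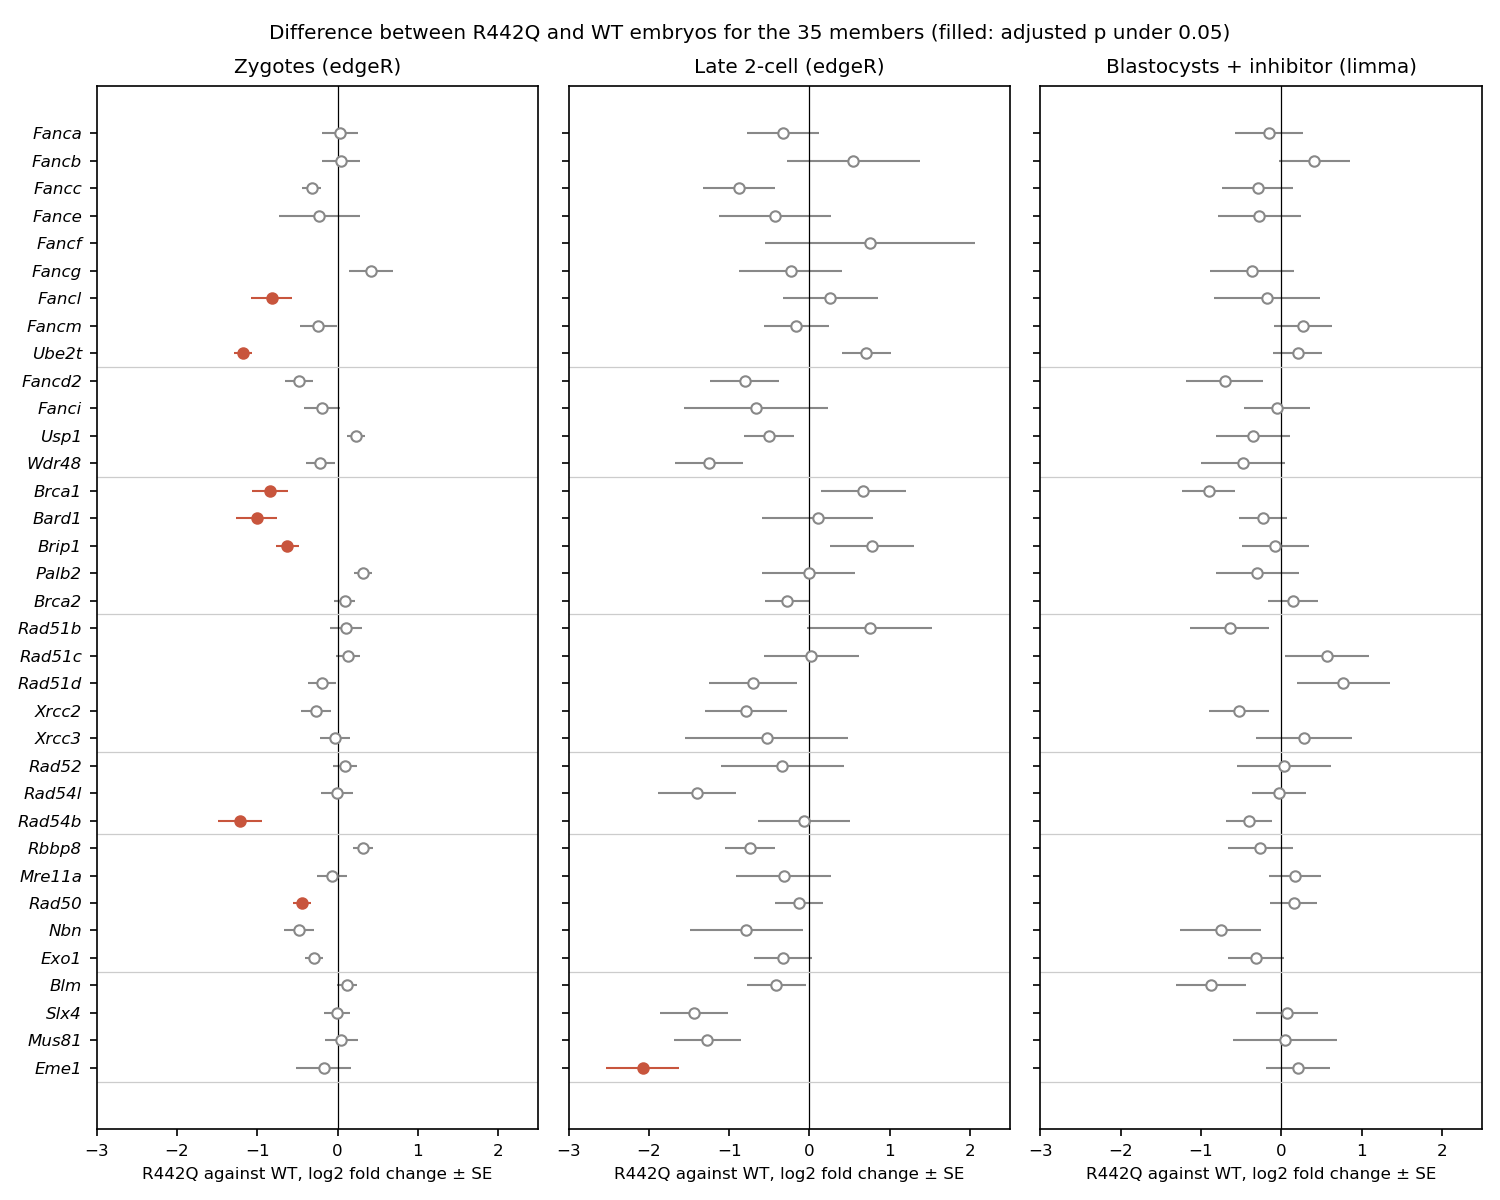
Log2 difference of R442Q from WT embryos with its SE for each member in zygotes, late 2-cell embryos (edgeR) and inhibitor-treated blastocysts (limma, on log2(FPKM + 1)), ordered by role. Filled points passed an adjusted p of 0.05: 7 in zygotes, 1 in late 2-cell embryos and 0 in blastocysts.

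In blastocysts, all cultured with the inhibitor, 0 of the 34 members tested by limma passed the threshold, and 1 of 11297 genes did (0.00885%). At an unadjusted p under 0.05 there was 1 member, Brca1, against 7.4% of all genes, and no alternative analysis called a member. Brca1 ranged from 5.27 to 12.9 FPKM (median 10.9) in WT and from 2.33 to 9.32 FPKM (median 4.72) in R442Q blastocysts. The ranges overlapped, with a difference of -0.90 ± 0.33 on the log2(FPKM + 1) scale, which understates changes of low genes (limma adjusted p = 0.456). Blm ranged from 2.80 to 14.9 FPKM (median 9.75) in WT and from 0.47 to 8.56 (median 5.73) in R442Q blastocysts, with a difference of -0.87 ± 0.44 (limma adjusted p = 0.697). Nbn ranged from 2.71 to 11.8 FPKM (median 9.61) in WT and from 0 to 14.2 (median 5.92) in R442Q blastocysts, with a difference of -0.75 ± 0.50 (limma adjusted p = 0.806). The lowest Brca1, Blm and Nbn values among R442Q blastocysts were all in replicate 7, the library with the fewest genes detected. Without that library the differences were -0.78, -0.56 and -0.34. The median difference was -0.16 over the members and -0.10 over all genes.

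From zygote to late 2-cell, 20 of the 35 members changed in WT embryos in the joint edgeR fit, 5 higher and 15 lower. Among all 16199 genes 61.2% changed, 36.2% higher and 25.0% lower. The members' median log2 change was -0.85 against 0.34 over all genes. The stages were deposited in separate tables, so a change of stage and a difference between tables cannot be told apart. FPKM was normalised separately in each of them and was not tested between the stages, and ratios of mean FPKM, added after the data were seen, are given below for members whose change, order or direction depended on the unit.

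The 5 that rose were Eme1, Fancm, Fanca, Brca2 and Usp1. Eme1 went from 2.16 to 9.97 CPM in WT zygotes to the 19.9 to 87.0 CPM given above (log2 change 2.97 ± 0.45, edgeR adjusted p = 6.13e-06). Fancm, the translocase that anchors the core complex on DNA, was at 41.2, 26.9, 29.7, 33.7 and 24.6 CPM in zygotes and at 132, 192, 164 and 241 CPM in late 2-cell embryos (2.46 ± 0.36, edgeR adjusted p = 3.09e-06). Fanca, a core subunit, was between 7.29 and 13.0 CPM and then at 29.9, 36.7, 17.7 and 36.8 CPM (1.58 ± 0.38, edgeR adjusted p = 0.00105, and 2.38 by mean FPKM). For these 3 genes every late 2-cell embryo exceeded every zygote.

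Brca2 was at 199, 179, 190, 207 and 183 CPM in WT zygotes and at 343, 469, 447 and 416 CPM in WT late 2-cell embryos, again without overlap (1.03 ± 0.20, edgeR adjusted p = 0.000100). Usp1, the deubiquitinase of FANCD2, was between 85.7 and 107 CPM in zygotes and at 129, 219, 159 and 155 CPM in late 2-cell embryos. Its change of 0.68 ± 0.22 passed (edgeR adjusted p = 0.0119) and was lost on leaving out any of 8 of the 20 embryos.

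In counts the 5 largest falls in WT embryos were of Brip1, Brca1, Palb2, Rad51d and Rad51b. In that unit Brip1 fell the most, from 118 to 159 CPM in zygotes to 7.17, 8.29, 14.4 and 9.29 CPM, which was 16.0-fold (log2 change -4.0 ± 0.35, edgeR adjusted p = 1.19e-09). In FPKM it went from a mean of 27.4 to 11.4, which is 2.41-fold, and the transcript length implied by its counts and FPKM was 5290 to 5952 bases in WT zygotes and 515 to 1573 bases in WT late 2-cell embryos. By the ratio of mean FPKM Brca1 fell the most (7.17-fold), and Rad50 (4.84-fold) and Fancc (4.65-fold) fell more than Palb2 (3.85-fold), Rad51d (3.01-fold) and Brip1. Brca1 fell 5.18-fold to 17.7, 10.2, 11.0 and 15.8 CPM (-2.37 ± 0.43, edgeR adjusted p = 5.39e-05). Palb2 fell 5.14-fold to 21.8, 11.1, 23.1 and 33.5 CPM (-2.36 ± 0.41, edgeR adjusted p = 3.55e-05). None of these late 2-cell values reached the zygotes' range.

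Of the XRCC genes and partners 4 of 5 fell and Xrcc2 did not pass. Rad51d went from 71.6, 40.7, 46.6, 61.1 and 60.2 CPM in WT zygotes to 14.5, 15.6, 11.8 and 11.7 CPM in late 2-cell embryos (4.45-fold, edgeR adjusted p = 1.05e-05). Rad51b went from 10.7 to 14.1 CPM to 2.93, 3.05, 2.08 and 3.96 CPM (4.41-fold, edgeR adjusted p = 0.000128). Brca1, Palb2 and Brip1 thus fell while Brca2 rose, and within the core complex Fanca and Fancm rose while Fancc and Ube2t fell. Resection genes that fell were Rad50 (3.21-fold) and Exo1 (2.97-fold), and Rbbp8, Mre11a and Nbn did not pass.

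In R442Q embryos 26 of the 35 members changed between the stages, 6 higher and 20 lower, beside 65.1% of all genes, 35.3% higher and 29.8% lower. The median was -1.07 over the members and 0.22 over all genes. In both genotypes 18 members passed the threshold, 4 higher in each (Eme1, Fancm, Fanca and Brca2) and 14 lower in each, with 0 in opposite directions. By mean FPKM the direction was the same for all 20 called in WT and for 25 of the 26 called in R442Q embryos. The exception was Brip1, with a log2 change of -2.68 in counts and 0.53 in FPKM in R442Q embryos. The 2 that passed in WT embryos alone were Ube2t, with a log2 change of 0.13 ± 0.19 in R442Q embryos, and Usp1, with -0.13 ± 0.20 (-1.18 by mean FPKM). Among the 8 that passed in R442Q embryos alone were Slx4 (-1.07 ± 0.29, and -0.05 by mean FPKM), Mus81 (-1.19 ± 0.30), Wdr48 (-1.77 ± 0.31) and Rbbp8 (-0.77 ± 0.20). Another of them, Fancf, rested on 2 estimated counts over all R442Q zygotes, so no fold is given. Whether such a change differed between genotypes was tested by the interaction.

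**Figure D4:**
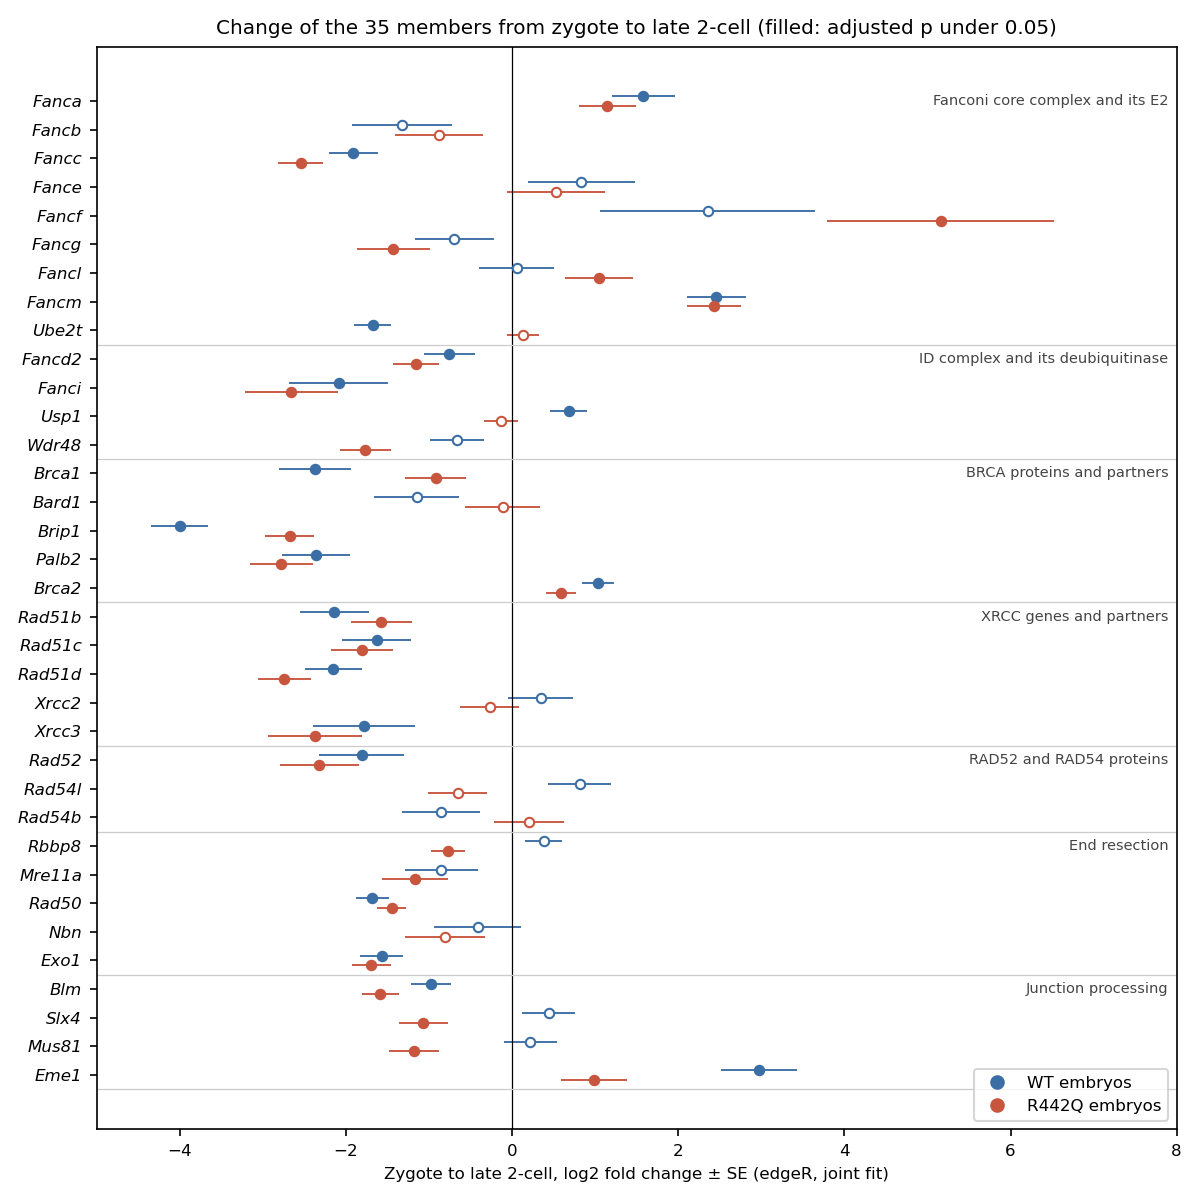
Log2 change from zygote to late 2-cell with its SE for each member in WT (blue) and R442Q (red) embryos, from the joint edgeR fit. Filled points passed an adjusted p of 0.05, 20 in WT and 26 in R442Q embryos, and most filled points lie below 0.

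The difference between R442Q and WT embryos itself differed between the stages for 6 of the 35 members, beside 10.1% of all 16199 genes (3.07% higher and 7.05% lower). Values are the log2 difference in late 2-cell embryos minus that in zygotes, and their median was -0.42 over the members and -0.16 over all genes. Ube2t, low in R442Q zygotes and above WT in late 2-cell embryos, had the smallest p (1.80 ± 0.29, edgeR adjusted p = 0.000490). It fell from 226 to 257 CPM in zygotes to 66.1 to 84.1 CPM in WT embryos, whereas R442Q embryos were at 86.1 to 123 CPM and then at 92.9 to 201 CPM. Its call held in all 24 alternative analyses, with values from 1.71 to 2.07.

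Brip1 was the other member with a positive value (1.32 ± 0.41, edgeR adjusted p = 0.0390), lower in R442Q zygotes and at 6.83, 15.5, 25.1, 13.3 and 23.2 CPM in R442Q late 2-cell embryos against 7.17 to 14.4 CPM in WT. The remaining 4 had negative values. Rbbp8, which starts resection as CtIP, was at 71.2, 57.4, 74.8, 79.0 and 68.6 CPM in WT and between 70.7 and 102 CPM (median 88.0) in R442Q zygotes. In late 2-cell embryos it was at 92.4, 86.8, 116 and 94.8 CPM in WT and at 90.2, 66.5, 42.6, 44.5 and 47.5 CPM in R442Q, so that the order of the genotypes turned (-1.15 ± 0.30, edgeR adjusted p = 0.0150).

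Slx4 (-1.51 ± 0.43, edgeR adjusted p = 0.0265), Mus81 (-1.41 ± 0.44, edgeR adjusted p = 0.0413) and Eme1 (-1.99 ± 0.59, edgeR adjusted p = 0.0344), 3 of the 4 genes of junction processing, overlapped between genotypes in zygotes. Of the 24 alternative analyses, the interaction was lost in 21 for Mus81, in 18 for Eme1, in 9 for Rbbp8, in 7 for Slx4 and in 5 for Brip1. By mean FPKM the log2 ratio of R442Q to WT for Slx4 was -0.54 in zygotes and -0.87 in late 2-cell embryos, closer to each other than in counts. Slx4 was between 30.7 and 41.1 CPM in WT and between 30.2 and 51.2 CPM in R442Q zygotes, and Mus81 between 15.5 and 36.6 and between 19.3 and 32.0. Their late 2-cell values are given above. Scaling by the median ratio of counts (RLE) moved the median of all genes by 0.16 and the split of all called genes from 497 higher and 1142 lower to 707 and 917, and under it Ube2t, Brip1, Rbbp8 and Slx4 passed. Leaving out an embryo left between 2 and 6 members called, and 2 on leaving out WT zygote replicate 2, R442Q zygote replicate 1, 2 or 5 or WT late 2-cell replicate 1, and 3 without WT zygote replicate 3 or R442Q zygote replicate 4.

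**Figure D5:**
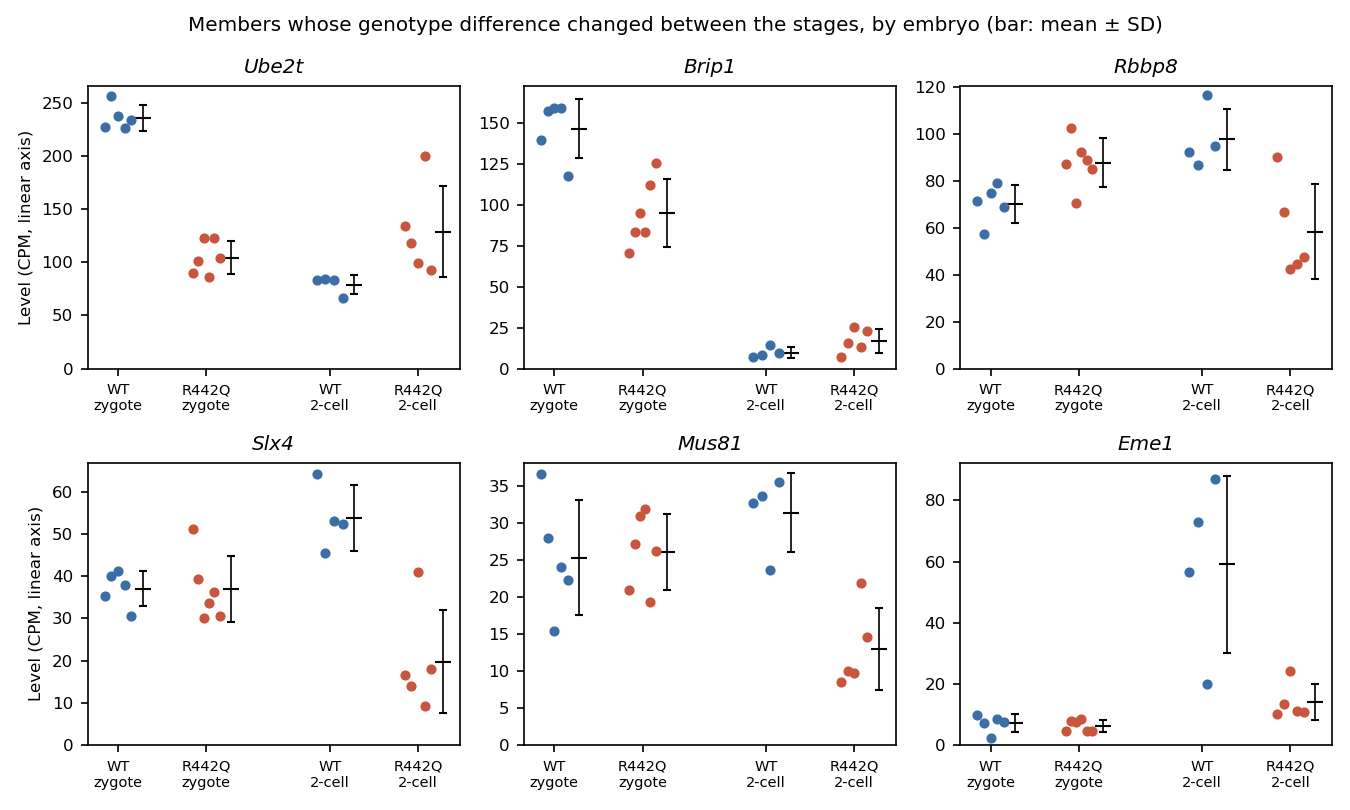
CPM in each embryo, with the mean and SD as a bar and linear axes from 0, for the 6 members whose genotype difference changed between zygotes and late 2-cell embryos. Ube2t is at 226 to 257 CPM in WT zygotes and at 66.1 to 84.1 CPM in WT late 2-cell embryos, while Slx4, Mus81 and Eme1 are apart or nearly apart in late 2-cell embryos only.

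Among 60 other genes of the same pathways 2 rose and 1 fell in R442Q zygotes out of 60 tested. Helq, a helicase of crosslink repair, was at 445 ± 31.0 CPM in WT and 545 ± 34.9 in R442Q zygotes (log2 0.29 ± 0.09, edgeR adjusted p = 0.0405). Rpa3, the small subunit of the single-strand binding protein, was at 125 ± 13.2 and 163 ± 15.4 CPM (0.37 ± 0.11, edgeR adjusted p = 0.0319). Rnf8, a ubiquitin ligase that acts at breaks, was at 195 ± 30.3 and 108 ± 37.6 CPM (-0.85 ± 0.19, edgeR adjusted p = 0.00863). These 3 of 60 stand beside 13.2% of all genes.

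In late 2-cell embryos 1 of the 57 pathway genes tested rose and 3 fell, beside 1.22% and 2.95% of all genes. Bap1, a deubiquitinase that binds BRCA1, was at 114 ± 34.3 CPM in WT and 20.1 ± 6.68 in R442Q embryos (-2.50 ± 0.35, edgeR adjusted p = 0.00343). Top3a, the topoisomerase that works with BLM, was at 53.4 ± 6.46 and 12.7 ± 4.89 CPM (-2.07 ± 0.38, edgeR adjusted p = 0.0127). Mdc1, the adaptor at damaged chromatin, was at 35.6 ± 8.68 and 9.86 ± 5.14 CPM (-1.85 ± 0.45, edgeR adjusted p = 0.0334), and Rpa3 was again above WT (62.9 ± 16.2 against 23.5 ± 8.47 CPM, 1.42 ± 0.38, edgeR adjusted p = 0.0488). In blastocysts 0 of 57 passed in limma. Between the stages 17 of 59 rose and 22 fell in WT embryos, and 17 rose and 27 fell in R442Q embryos, beside the 61.2% and 65.1% of all genes that changed.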

How the data were processed

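Single embryos were lysed, and cDNA made by SMART-seq2 was fragmented with Tn5 and sequenced on an Illumina HiSeq X-10, per the labels' protocols. The deposited estimated counts per gene (zygotes and late 2-cell embryos) and the deposited FPKM, scaled by the authors to length and depth (all stages), were used as given. RSEM and mm10 are named in the submitters' processing notes, and the use of strand is not given in the sources used here.

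Counts were rounded and tested in R 4.3.3 with edgeR 4.0.16 (filterByExpr with a minimum count of 10, TMM scaling, quasi-likelihood test), each stage alone for the genotypes and in 1 joint fit of 4 groups for stage and interaction. Blastocysts were tested with limma 3.58.1 (trend) on log2(FPKM + 1), keeping genes with an FPKM of 1 or more in 7 or more embryos. P-values were adjusted by Benjamini-Hochberg over all genes, with a threshold of 0.05. CPM are per TMM-scaled library of the stage. DESeq2 1.42.0, other scalings and filters, FPKM with limma, a length and GC correction, a replicate block and left-out embryos were the alternatives. The tests were tested on simulated data. Gene positions are GENCODE M21 (GRCm38). The counts are of reads without molecular identifiers, not of RNA molecules.

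The members and gene lists were chosen with earlier results of these data known. Named members are those past the threshold in a genotype comparison, the 3 highest and 3 lowest in WT FPKM per stage, the 5 largest rises and falls between stages in WT, the 3 smallest p in blastocysts, and up to 5 in the interaction. Chek1 and called pathway genes were added. Mus81, Palb2, Fancc, Wdr48 and the other members given with values were named after their values were seen.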

Additional observations from a re-analysis of the deposited data

Results flagged for a closer look

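The first kind of result is an embryo far from the others of its group, by the gap to its nearest neighbour over the group's range. Of 206 groups of 1 member at 1 stage and genotype, 14 held such an embryo, where chance gives about 1 in 20 groups. In zygotes it was Wdr48 in R442Q replicate 6, at 44.6 CPM against 74.1 to 90.2 in the others. In WT late 2-cell embryos, Ube2t was at 66.1 CPM in replicate 4 (83.0 to 84.1 in the others) and Rad50 at 42.5 CPM in replicate 2 (50.5 to 51.6).

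In R442Q late 2-cell embryos, replicate 3 was high in Rad51c (30.0 CPM, 5.57 to 12.6 in the others), Slx4 (40.9 CPM, 9.34 to 18.0) and Eme1 (24.4 CPM, 10.2 to 13.5), and replicate 5 in Rad54b (36.4 CPM, 5.75 to 11.2). In blastocysts, WT replicate 4 was high in Xrcc2 (6.85 FPKM, 1.83 to 3.40). R442Q replicate 7 was high in Fancb (8.67 FPKM, 0.29 to 3.83), Ube2t (91.8 FPKM, 22.7 to 36.8), Rad51b (13.3 FPKM, 0.18 to 5.22) and Mre11a (29.4 FPKM, 11.3 to 17.6). R442Q replicate 3 was high in Brca1 (9.32 FPKM, 2.33 to 5.30) and replicate 1 in Mus81 (37.3 FPKM, 4.69 to 18.7). R442Q blastocyst replicate 7 thus holds 4 of the 14 and R442Q late 2-cell replicate 3 holds 3.

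The second kind is a genotype difference that itself differed between zygotes and late 2-cell embryos in the edgeR interaction. On the log2 scale, late 2-cell minus zygote, it was 1.80 for Ube2t (from -1.18 in zygotes to 0.71 in late 2-cell embryos, each stage fitted alone), 1.32 for Brip1 (-0.62 to 0.78) and -1.15 for Rbbp8 (0.32 to -0.75). It was -1.51 for Slx4 (-0.01 to -1.44), -1.41 for Mus81 (0.05 to -1.27) and -1.99 for Eme1 (-0.17 to -2.07).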

How the results depend on the processing

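In zygotes 7 members were called lower, and between 6 and 9 with RLE, DESeq2, no filter, FPKM or the length and GC trend removed. The joint fit of both stages called 1 (Ube2t), with 270 genes called in place of 1643, and leaving out embryos gave 4 to 7 (4 without WT replicate 2). Without R442Q replicate 3, 1 of the 7 called was higher, Rbbp8 (log2 0.38, edgeR adjusted p = 0.0475), and Fancl was not called. In late 2-cell embryos the count of 1 became 5 in DESeq2, 2 with no filter, 2 on FPKM with a pseudocount of 1 or 0.1, 0 with the length and GC trend removed and 8 in the joint fit. All genes called there were 1843, 889, 652, 469, 331 and 2507 in place of 580. Left-out embryos gave 0 to 3 members, 0 without WT replicate 2 or 4 and 3 without R442Q replicate 3, with 142 to 891 genes called in all. In blastocysts the count was 0 throughout, with 0 to 30 genes called in all, 30 without WT replicate 7. The stage counts stayed at 19 to 24 in WT and 24 to 27 in R442Q embryos on leaving out embryos and at 18 to 22 and 24 to 25 otherwise. The interaction count of 6 became 2 with no filter and 2 to 6 on leaving out embryos, with 2526 genes called in DESeq2 and 1089 without WT zygote replicate 2 in place of 1639. RLE moved the median stage change of all genes in R442Q embryos by 0.12. The log2 differences kept their sign for the pairs of a member and a comparison chosen by the naming rule. Others did not all do so, such as Fanca in late 2-cell embryos (-0.33 in CPM and 0.36 in FPKM). The cause of these changes was not tested.

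Replicate numbers were fitted as a block because the genotypes share them, but same-numbered embryos did not deviate together (correlations from -0.168 to 0.206). With the replicate block 5 members were called in zygotes, 0 in late 2-cell embryos (58 genes in all) and 0 in blastocysts. Between stages 19 were called in WT and 24 in R442Q embryos, and 4 in the interaction (1085 genes). The zygote and stage counts have no count of all genes beside them here, so they cannot be read as a change of the members alone. Mean levels under 10 CPM in zygotes limit what can be shown. They were those of Fanca, Fance, Fancf, Fancl and Eme1 in both genotypes and of Bard1 in R442Q zygotes. Blastocyst depth is unknown.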

Other observations

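Of the 7 members called lower in R442Q zygotes 5 had a promoter entry, and 4 of these 5 (Bard1, Brca1, Brip1 and Ube2t) held an E2F-type site, beside 10 of the other 21 members with an entry. This was counted after the calls were known and was not tested.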
